A study of Mus musculus with 6 samples.

Results

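The genes described here encode 10 enzymes that remove peroxides and superoxide or supply the reducing power for it: the glutathione peroxidases Gpx1 and Gpx4, the peroxiredoxins Prdx2 and Prdx3, catalase (Cat), the superoxide dismutases Sod1 and Sod2, glutathione reductase (Gsr), glucose-6-phosphate dehydrogenase (G6pdx) and the glutathione transferase Gsta4. They were found by symbol among the 23119 rows of the expression table, and all 10 matched a row of their own. Expression was profiled by RNA sequencing in erythroid cells that carry CD71, the transferrin receptor, and the red cell antigen Ter119, sorted from the livers of C57BL/6 mouse fetuses at embryonic day 13.5. The groups are Tfam KO (3 libraries) and Tfam WT (3 libraries), by their labels knockout and wild type for Tfam. Tfam is a factor that packages and transcribes mitochondrial DNA. The sources used here do not give the deleted exons, any Cre driver or whether each library came from its own fetus, so a p-value reflects how far these libraries scatter, which may be technical. The genes were proposed for their shared function with results of these libraries known, and Gsta4 was chosen by its RPKM in the KO and WT libraries, so its difference is described without a test.

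Red cells carry oxygen on iron-rich hemoglobin and meet superoxide and hydrogen peroxide throughout their life. Superoxide dismutases turn superoxide into hydrogen peroxide, which catalase, peroxiredoxins and glutathione peroxidases then reduce. Glutathione peroxidases spend glutathione, which glutathione reductase regenerates with NADPH, and glucose-6-phosphate dehydrogenase opens the pentose phosphate pathway that yields NADPH. Mitochondria have their own enzymes, among them Sod2 and Prdx3. Known regulators of such genes include NRF2 (Nfe2l2), which binds antioxidant response elements together with small Maf proteins, and Foxo3.

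Promoter windows were available for 8 of the 10 genes, in RefSeq coordinates of build GRCm38.p6, from 250 bases before to 50 bases after the annotated start. The letters searched on both strands were the antioxidant response element core TGACNNNGC, the GATA sequence AGATAA and the Klf1 core CCNCNCCC. The antioxidant core was found at Sod1 and G6pdx, which is 2 of the 11 windows of these genes, beside 12.4% of all 32851 windows in the table. AGATAA was found in 0 of the 11 windows, beside 11.2% of all, and CCNCNCCC in 10 of the 11, beside 49.5% of all. The windows are not independent: several belong to Gpx4, and a match where its windows overlap is counted in each. Bases G and C made up 47.0% to 68.7% of these windows, and the other windows were not matched for this, so the shares do not measure enrichment. A match is a description of letters and not a binding site. The windows of Gpx1 and Prdx2, the genes with the highest levels among the 10, and of Sod1 and G6pdx, which hold the antioxidant core, are given in gene orientation, 5′ to 3′, with matches to any of these searches in capitals. The expression table is on build mm9, so these coordinates do not apply to it. At Sod1 a match to the Klf1 core overlaps the match to the antioxidant core, and also 2 matches to the Klf1 core overlap each other.
Gpx1, chr9:108338830-108339129, plus strand: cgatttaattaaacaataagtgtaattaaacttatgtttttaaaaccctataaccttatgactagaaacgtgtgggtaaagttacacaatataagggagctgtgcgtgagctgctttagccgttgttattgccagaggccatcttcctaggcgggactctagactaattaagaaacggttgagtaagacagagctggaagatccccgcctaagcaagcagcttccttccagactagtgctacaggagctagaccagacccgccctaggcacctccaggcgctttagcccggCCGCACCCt
Prdx2, chr8:84969372-84969671, plus strand: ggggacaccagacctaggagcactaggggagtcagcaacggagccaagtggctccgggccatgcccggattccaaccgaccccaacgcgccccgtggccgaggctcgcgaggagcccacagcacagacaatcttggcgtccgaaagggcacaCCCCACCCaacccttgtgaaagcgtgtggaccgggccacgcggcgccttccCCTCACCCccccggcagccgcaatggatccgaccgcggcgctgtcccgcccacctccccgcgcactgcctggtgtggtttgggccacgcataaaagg
Sod1, chr16:90220512-90220811, plus strand: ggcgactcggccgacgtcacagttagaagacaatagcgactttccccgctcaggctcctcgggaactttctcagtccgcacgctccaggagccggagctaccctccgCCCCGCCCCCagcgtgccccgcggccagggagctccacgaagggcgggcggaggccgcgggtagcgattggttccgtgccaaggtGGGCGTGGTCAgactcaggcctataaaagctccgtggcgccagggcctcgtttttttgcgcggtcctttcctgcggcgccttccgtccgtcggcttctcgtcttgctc
G6pdx, chrX:74428831-74429130, minus strand: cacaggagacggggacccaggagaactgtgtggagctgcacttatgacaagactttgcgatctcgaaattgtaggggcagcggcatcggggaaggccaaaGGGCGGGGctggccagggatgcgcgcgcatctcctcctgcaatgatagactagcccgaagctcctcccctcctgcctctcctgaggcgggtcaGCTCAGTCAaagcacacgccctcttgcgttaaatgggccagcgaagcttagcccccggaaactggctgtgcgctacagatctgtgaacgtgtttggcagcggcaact

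The libraries are not alike, which bears on every level below. Values are RPKM, reads scaled to transcript length and to the mapped reads of the library, with no read counts beside them. The RPKM sum was 423618 to 535013 in the KO libraries and 422534, 461163 and 814665 in the WT libraries, the highest in WT replicate 3. That library departed by transcript length. On a log2 scale, genes with transcripts of up to 1553 bases deviated from the 6-library mean by a median of 0.68 there, and by -0.30 to 0.033 in the other 5 libraries. Genes with transcripts from 4756 bases deviated by -0.53 there, and by 0.035 to 0.17 in the other 5. Ribosomal RNA precursor (Rn45s) was at 782 to 1143 RPKM in KO libraries, at 869 and 940 in WT replicates 2 and 1 and at 5526 in WT replicate 3. The nuclear RNA Malat1 was lowest in WT replicate 3 (46.6 RPKM), followed by KO replicate 3 (76.5 RPKM). Results are therefore given with and without WT replicate 3. The cells were checked against 12 erythroid markers, whose means over the libraries ran from 146 to 3954 RPKM. Of these 7 had a lower and 5 a higher fitted value in KO, beside 53.0% lower among all rows tested below. In 1 of the 12 the groups did not overlap, beside 4.54% of those rows. That marker is Epor, the erythropoietin receptor, named after its values were seen. It was at 112, 97.7 and 128 RPKM in KO libraries and at 220, 215 and 389 RPKM in WT libraries. Its limma adjusted p was 0.909 with all libraries and 0.750 without WT replicate 3. Tfam itself was at 5.92, 7.22 and 6.25 RPKM in the libraries labelled KO and at 7.22, 8.44 and 5.72 RPKM in those labelled WT. These overlap (p = 0.7 by an exact permutation test, two-sided, which cannot go below 0.1 in this design), and a gene-level value does not separate the deleted exons, so the level of Tfam does not check the labels.

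Transcripts for the peroxide-removing enzymes stood among the most abundant in these cells. Gpx1, a selenoenzyme that reduces hydrogen peroxide with glutathione, was at 6564, 6172 and 10776.5 RPKM in KO replicates 1 to 3 and at 7493, 6232 and 26098 RPKM in WT replicates 1 to 3. It held the highest level of all tested rows in WT replicates 2 and 3 and stood at rank 2 in the other 4 libraries. The adult globin rows are listed at 0 in this table, so the rank is among rows with a value. Gpx1 made up 1.43% to 2.01% of the RPKM sum in KO libraries and 1.47% to 3.20% in WT libraries. The mean was 7838 ± 2553 RPKM in KO and 13274 ± 11123.5 RPKM in WT (SD, n = 3 each), and the groups overlapped.

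Prdx2, the abundant cytosolic peroxiredoxin of red cells, was at 4738, 4595 and 7428 RPKM in KO libraries and at 6027.5, 4890.1 and 14715 RPKM in WT libraries. It stood at rank 3 to 5 in every library. As for Gpx1, replicate 3 was the highest of its group in both genotypes, and the groups overlapped. Within each library Gpx1 exceeded Prdx2, by 1.34 to 1.45 times in KO libraries and by 1.24, 1.27 and 1.77 times in WT replicates 1 to 3. Gpx4, a selenoenzyme that reduces lipid hydroperoxides in membranes, was at 439, 425 and 659 RPKM in KO libraries and at 517, 436 and 1519 RPKM in WT libraries. Gpx1 was 14.5 to 16.3 times Gpx4 in KO libraries and 14.3 to 17.2 times in WT libraries, so the pair kept a narrow ratio while each moved more than 3-fold between WT libraries.

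Prdx3, the peroxiredoxin of the mitochondrial matrix, was lower and less spread. It was at 392, 395 and 516 RPKM in KO libraries and at 436, 429 and 637 RPKM in WT libraries, with means of 435 ± 70.7 RPKM in KO and 501 ± 118 RPKM in WT. Prdx2 exceeded it by 11.6 to 14.4 times in KO libraries and by 11.4, 13.8 and 23.1 times in WT replicates 2, 1 and 3. Catalase, which splits hydrogen peroxide without spending glutathione, was less raised in WT replicate 3 than Gpx1 and Prdx2. Cat was at 353, 279 and 383 RPKM in KO libraries and at 325, 238 and 344 RPKM in WT libraries, with means of 338 ± 53.7 RPKM in KO and 302 ± 56.3 RPKM in WT. Within each group replicate 3 was the highest and replicate 2 the lowest, as for Gpx1 and Prdx2, and the groups overlapped. The ratio of Gpx1 to Cat ran from 18.6 to 28.1 in KO libraries and was 23.1, 26.2 and 75.9 in WT replicates 1 to 3.

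The superoxide dismutases differed in level and in spread. Sod1, the copper-zinc enzyme of the cytosol, was at 581, 604 and 930.0 RPKM in KO libraries and at 707, 594 and 1840.1 RPKM in WT libraries, and WT replicate 2 lay below KO replicate 2. Sod2, the manganese enzyme of the mitochondrial matrix, was at 20.1, 20.1 and 23.3 RPKM in KO libraries and at 23.2, 20.5 and 28.7 RPKM in WT libraries. Its mean was 21.2 ± 1.89 RPKM in KO and 24.2 ± 4.17 RPKM in WT, and KO replicate 3 lay above WT replicates 1 and 2. Sod1 exceeded Sod2 by 29.0 to 39.8 times in KO libraries and by 28.9, 30.4 and 64.1 times in WT replicates 2, 1 and 3. The annotated Sod1 transcript is 641 bases long and that of Sod2 5861 bases.

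Both enzymes of glutathione regeneration were measured at a similar level. Gsr was at 44.4, 34.7 and 54.8 RPKM in KO libraries and at 51.5, 39.3 and 52.1 RPKM in WT libraries. G6pdx was at 45.3, 38.9 and 52.4 RPKM in KO libraries and at 49.4, 41.3 and 43.6 RPKM in WT libraries. The group means differed by less than the SD between libraries. That of Gsr was 44.6 ± 10.1 RPKM in KO and 47.6 ± 7.21 RPKM in WT, and that of G6pdx was 45.5 ± 6.78 RPKM in KO and 44.8 ± 4.17 RPKM in WT. The ratio of Gsr to G6pdx stayed within 0.893 to 1.05 in KO libraries and 0.952 to 1.19 in WT libraries. Neither gene was raised in WT replicate 3 as Gpx1, Prdx2, Sod1 and Gpx4 were.

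By level the 10 genes ran, from the highest mean over the 6 libraries, Gpx1, Prdx2, Sod1, Gpx4, Prdx3, Cat, Gsr, G6pdx, Sod2 and Gsta4. Each exceeded the next in all 6 libraries except Gsr and G6pdx, where each was the higher in 3. The ranges over libraries nevertheless overlapped for Gpx1 and Prdx2, Sod1 and Gpx4, and Gpx4 and Prdx3. Together the 10 made up 2.91% to 3.89% of the RPKM sum in KO libraries and 3.06%, 3.39% and 5.56% in WT replicates 2, 1 and 3, and Gpx1 and Prdx2 were 85.7% to 87.4% of that in KO libraries and 86.0% to 90.1% in WT libraries.

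**Figure D1:**
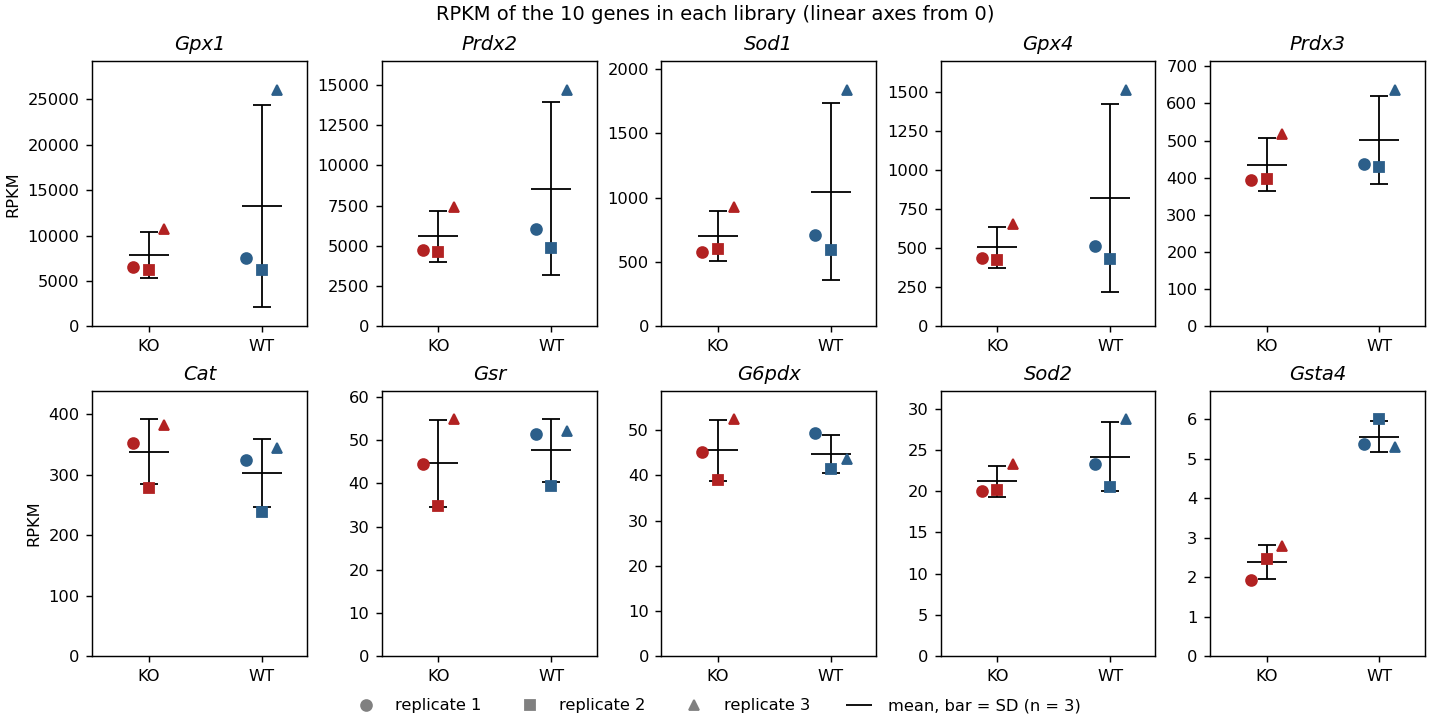
RPKM of each gene (y axis, linear from 0) in KO and WT libraries, with a symbol per replicate number and a bar for the mean and its SD (n = 3). Replicate 3 of the WT group stands far above the other libraries for Gpx1, Prdx2, Sod1 and Gpx4, and the KO and WT libraries of Gsta4 do not overlap.

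Gsta4, a glutathione transferase that conjugates lipid aldehydes such as hydroxynonenal, had the lowest level of the 10 and was lower in every KO library than in every WT library. It was at 1.92, 2.46 and 2.79 RPKM in KO replicates 1 to 3 and at 5.38, 6.00 and 5.30 RPKM in WT replicates 1 to 3, with means of 2.39 ± 0.437 RPKM in KO and 5.56 ± 0.387 RPKM in WT (SD, n = 3 each). The log2 fold change of RPKM + 1 was -0.96 with all libraries and -0.99 without WT replicate 3. Between libraries of the same number it was -1.13, -1.02 and -0.73. As a share of the RPKM sum the groups were also apart, at 0.000453% to 0.000569% in KO and 0.000651% to 0.00142% in WT libraries. Of its closest relatives, Gsta1 and Gsta2 are listed at 0 in every library and Gsta3 reached 0.348 RPKM at most, and reads shared among these relatives could be split between them by the counting.

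Markers of macrophages, which sit at the centre of fetal liver erythroid islands, had a lower summed RPKM in KO. The 11 macrophage markers summed to 4.67 to 12.0 RPKM in KO libraries and to 12.5 to 19.1 RPKM in WT libraries, without overlap. As a share of the RPKM sum they were at 0.000872% to 0.00277% in KO libraries and 0.00235% to 0.00297% in WT libraries, and the groups overlapped. By library the sums were 7.93, 12.0 and 4.67 RPKM in KO replicates 1 to 3 and 13.4, 12.5 and 19.1 RPKM in WT replicates 1 to 3. Of the macrophage markers 10 were above 0 in some library, and Cd163 was listed at 0 in all. Mrc1, too low to be tested, had the higher mean in KO (0.315 RPKM, 0.217 in WT), and the rest had the lower mean in KO. A lower fitted value in KO was found for 6 of 6 that were tested, beside 53.0% of all tested rows. The groups did not overlap for 4 of these 6, all lower in KO, beside 4.54% of all rows. Without WT replicate 3 it was again 4 of 6, beside 11.3%. Among these 4 are Cd5l (mean 0.560 RPKM in KO, 1.86 in WT), Marco (0.730 and 1.45) and Csf1r (0.848 and 1.26). Their means over the 6 libraries reached 1 RPKM through the WT libraries alone. The filter thus favours markers lower in KO, so these counts cannot be read against the shares of all rows. Hepatocyte markers (11 genes) summed to 15.5 to 140 RPKM in KO and 42.4 to 88.4 RPKM in WT libraries, and megakaryocyte markers (7 genes) to 30.4 to 88.6 RPKM in KO and 43.4 to 78.2 RPKM in WT libraries. Neutrophil markers (9 genes) summed to 29.3 to 75.5 RPKM in KO and 39.9 to 174 RPKM in WT libraries, and endothelial markers (5 genes) to 1.05 to 2.05 RPKM in KO and 1.05 to 1.58 RPKM in WT libraries. In RNA of many cells, fewer cells of a type and less RNA per cell cannot be told apart, and the part of macrophage RNA in the Gsta4 values was not tested.

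The 5 genes whose pattern over the 6 libraries was most like that of Gsta4, by Pearson correlation of log2 values among 7967 rows naming a single gene, were Snora65, Nt5c3l, Siah1a, Mdga1 and Vps36. These correlations, of 0.95 to 0.98, only describe libraries that fall into the KO and WT groups, and they follow from the difference between those groups. Siah1a, a ubiquitin ligase, was at 12.1, 12.0 and 12.0 RPKM in KO libraries and at 14.4, 14.6 and 14.7 RPKM in WT libraries.

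With limma on log2(RPKM + 1), adjusted over the 8302 rows whose mean reached 1 RPKM, 0 of the 9 genes other than Gsta4 passed an adjusted p of 0.05, beside 0 of 8302 rows (0.0% in each direction). At an unadjusted p under 0.05 there were 100 rows and 0 of these 9 genes. The fitted log2 fold change was -0.49 (SE 0.67, adjusted p = 0.909) for Gpx1, -0.47 (SE 0.55) for Prdx2, -0.49 (SE 0.50) for Gpx4 and -0.41 (SE 0.47) for Sod1. For the mitochondrial Prdx3 and Sod2 it was -0.19 (SE 0.27) and -0.17 (SE 0.17). The other values were 0.17 (SE 0.25) for Cat, -0.10 (SE 0.22) for Gsr and 0.017 (SE 0.18) for G6pdx. The adjusted p of these genes was 0.909 to 0.979. The interval for Gpx1 reached from -2.07 to 1.08, so a change of more than 2-fold in either direction lay within it, while that of G6pdx was -0.40 to 0.43.

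Without WT replicate 3, but with KO replicate 3 kept, the fitted values of the most abundant genes lay on the other side of 0. They were 0.15 (SE 0.35) for Gpx1, 0.0050 (SE 0.33) for Prdx2, 0.067 (SE 0.25) for Gpx4 and 0.087 (SE 0.26) for Sod1. Prdx3 was at -0.0034 (SE 0.20), Sod2 at -0.047 (SE 0.13), Gsr at -0.035 (SE 0.21), G6pdx at 0.00046 (SE 0.17) and Cat at 0.27 (SE 0.22). The intervals narrowed, to -0.67 to 0.97 for Gpx1 and -0.39 to 0.39 for G6pdx, and 0 of the 9 genes passed (limma, adjusted p = 1 for each). In that comparison 1 of 8302 rows was called, higher in KO (0.012%), and 183 rows had an unadjusted p under 0.05, 0 of these 9 genes among them. The median over the 9 genes other than Gsta4 was -0.19 with all libraries, beside -0.019 over all tested rows, and 0.0050 without WT replicate 3, beside -0.013. With Gsta4 counted it was -0.30 with all libraries and 0.0027 without WT replicate 3. Without replicate 3 of both groups, a setting chosen after seeing the data, it was -0.13, beside -0.034 over all tested rows. In that setting Gpx1 was at -0.10, Prdx2 at -0.22, Gpx4 at -0.14 and Sod1 at -0.13, each again below 0.

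**Figure D2:**
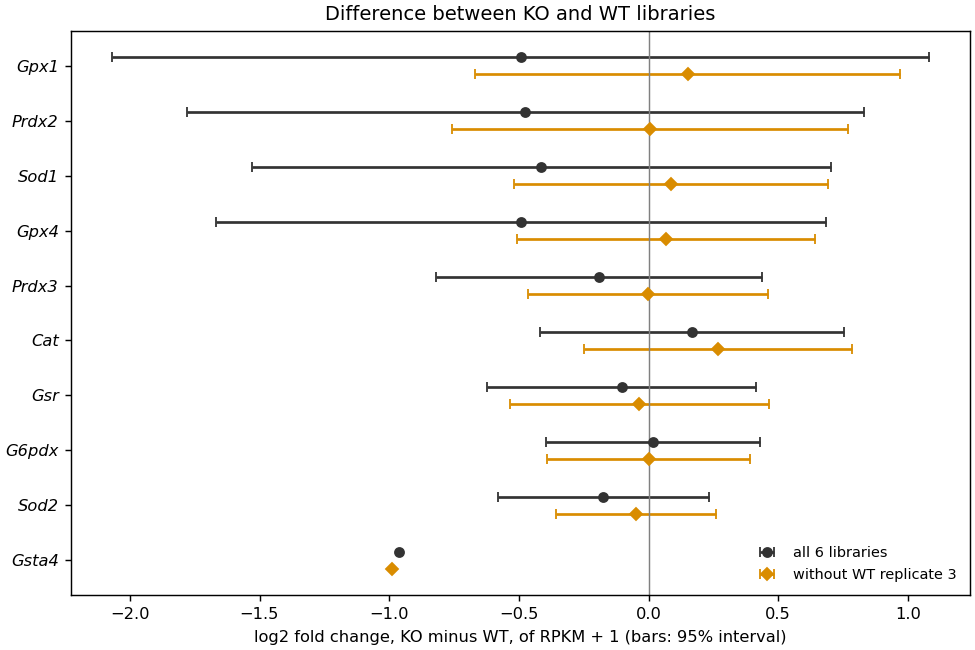
Fitted log2 fold change of RPKM + 1 (x axis, KO minus WT) for the 10 genes, with all 6 libraries (dark circles) and without WT replicate 3 (orange diamonds), and bars for the 95% interval of the limma fit. No interval is drawn for Gsta4, which is described only; for Gpx1 the value is -0.49 with all libraries and 0.15 without WT replicate 3, and every interval drawn includes 0.

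Separation of the groups was counted beside the same count over all rows. Gsta4, chosen by its KO and WT values, had groups that did not overlap in each setting named here and is left out of the counts. With all libraries 0 of the 9 other genes had groups that did not overlap, beside 4.54% of all rows (2.36% lower and 2.18% higher in KO), and without WT replicate 3 it was again 0, beside 11.3% (5.9% lower and 5.42% higher in KO). Without KO replicate 3 there were 3 of 9, Prdx2, Prdx3 and Sod2, all lower in KO, beside 23.9% of all rows, and the same 3 without replicate 3 of both groups, beside 34.2%. Without KO replicate 2 there was 1, Cat, higher in KO, beside 12.3%. Between libraries of the same number, 5 of the 9 were lower in KO in every pair (Gpx1, Prdx2, Gpx4, Prdx3 and Sod2), beside 20.1% of all rows. Cat was higher in KO in every pair, by 0.12, 0.23 and 0.16 on the log2 scale, beside 10.8% of all rows. The differences of the pairs numbered 1 and 2 were small for Gpx1 (-0.19 and -0.014) and Gpx4 (-0.24 and -0.036), and those of the pair numbered 3 were -1.28 and -1.20.

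WT replicate 3 was the highest library for 6 of the 10 genes (Gpx1, Prdx2, Sod1, Gpx4, Prdx3 and Sod2), beside 41.7% of all tested rows, and KO replicate 3 came next in all 6, which is 6 of the 10 genes beside 27.1% of all rows. Among the rows highest in WT replicate 3, KO replicate 3 came next in 65.0%. The level in WT replicate 3 was 3.80 times the mean of WT replicates 1 and 2 for Gpx1, 3.19 times for Gpx4, 2.83 times for Sod1 and 2.70 times for Prdx2. It was 1.47 times for Prdx3, 1.31 for Sod2, 1.22 for Cat, 1.15 for Gsr, 0.962 for G6pdx and 0.931 for Gsta4. In KO replicate 3 the corresponding figures were 1.69 for Gpx1, 1.53 for Gpx4, 1.57 for Sod1 and 1.59 for Prdx2, and 1.16 to 1.39 for the other 6.

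The genes raised most in WT replicate 3 have short transcripts, of 641 to 1612 bases, and short transcripts as a whole stood higher in that library. The tested rows were divided by length into 20 bins of 395 to 399 genes. The median log2 difference between WT replicate 3 and WT replicates 1 and 2 was 1.14 in the bin that holds Sod1, 0.97 in that of Gpx4, 0.73 in that of Gpx1 and 0.49 in that of Prdx2. The genes themselves were at 1.50, 1.68, 1.93 and 1.44. Prdx3 (0.56) was near the median of its bin (0.62), as was G6pdx (-0.049 beside 0.029), while Gsr was at 0.21 and Cat at 0.30 beside medians of 0.029 and 0.10. Gsta4 has a transcript of 977 bases and falls in the bin of Gpx4, but at -0.085 it was not raised. Sod2 was at 0.38, where the median of its bin was -0.56. With a trend on transcript length removed from each library the fitted differences were -0.25 for Gpx1, -0.23 for Gpx4, -0.32 for Prdx2, -0.082 for Sod1, -0.34 for Sod2, 0.21 for Cat and -0.70 for Gsta4. Length, ribosomal RNA precursor and the replicate number move together in WT replicate 3, and their parts in its levels were not tested.

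**Figure D3:**
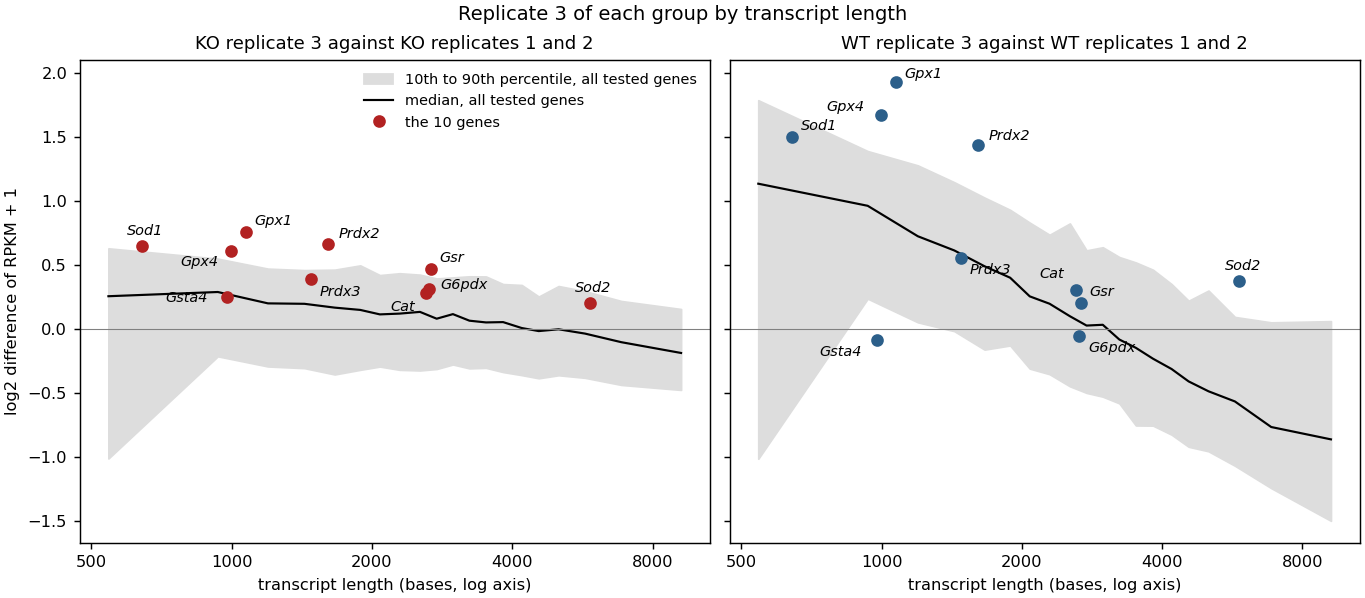
Log2 difference of RPKM + 1 (y axis) between replicate 3 and replicates 1 and 2 of the KO group (left) and of the WT group (right), against transcript length in bases (log x axis), with the median (line) and a grey band over the middle 80% of all tested genes in 20 length bins. In WT replicate 3 the median falls with length. Gpx1 (1.93), Gpx4 (1.68), Prdx2 (1.44) and the long Sod2 (0.38) lie above the grey band, and Gsta4 (-0.085) lies well below the median of its bin (0.97).

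Beyond the 10 genes, 115 genes in 8 lists cover other antioxidant enzymes, thioredoxins and glutaredoxins, glutathione synthesis, glutathione transferases, NADPH supply, selenoprotein synthesis, regulators and further NRF2 targets, and 74 of them were tested. With limma 0 of the 74 passed an adjusted p of 0.05, beside 0.0% of all rows. At an unadjusted p under 0.05 there was 1 of the 74, beside 100 of all 8302 rows. With all libraries 46 of 74 had a lower fitted value in KO, beside 53.0% of all tested rows, and without WT replicate 3 it was 30 of 74, beside 55.0%. The groups did not overlap for 3 of the 74, beside 4.54% of all rows.

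Among the glutathione transferases tested, 8 of 9 were fitted lower in KO with all libraries (median -0.31) and 1 of 9 without WT replicate 3 (median 0.041). Without replicate 3 of both groups their median was -0.069. Mgst3, a microsomal family member and the highest of them, was at 1081, 1055 and 1691 RPKM in KO libraries and at 1236, 1217 and 3205 RPKM in WT libraries. In glutathione synthesis and transport 6 of 10 were lower (median -0.11), and without WT replicate 3 it was 4 of 10 (median 0.066). Slc25a39, which imports glutathione into mitochondria, was at 527, 477 and 691 RPKM in KO libraries and at 545, 469 and 1322 RPKM in WT libraries. Both genes share with Gpx1 the high value in WT replicate 3.

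Of the other antioxidant enzymes 3 of 7 were lower in either setting, with a median of 0.0056 with all libraries and 0.077 without WT replicate 3. The highest, the peroxiredoxin Prdx6, was at 99.2, 104 and 104 RPKM in KO libraries and at 99.3, 84.6 and 118 RPKM in WT libraries. Among thioredoxins and glutaredoxins 7 of 9 were lower (median -0.11), and without WT replicate 3 it was 5 of 9 (median -0.0045). Glrx5, a mitochondrial glutaredoxin of iron-sulfur cluster assembly, was the highest, at 1017 ± 220 RPKM in KO and 1476 ± 956 RPKM in WT. Cytosolic Glrx lay higher in every KO library, at 4.92, 4.05 and 4.19 RPKM, than in any WT library, at 2.11, 2.77 and 3.82 RPKM, with a log2 fold change of 0.48 (SE 0.19) and a limma adjusted p of 0.909. It is the gene with an unadjusted p under 0.05.

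In NADPH supply 6 of 14 were lower (median 0.024), and without WT replicate 3 it was 5 of 14 (median 0.067). Taldo1, the transaldolase of the pentose phosphate pathway, was the highest, at 571 ± 128 RPKM in KO and 798 ± 449 RPKM in WT. Of the selenoprotein synthesis genes 7 of 8 were lower (median -0.13), and without WT replicate 3 it was 5 of 8 (median -0.043). Eefsec, the elongation factor that delivers selenocysteine to the ribosome, was at 3.61, 4.31 and 4.05 RPKM in KO libraries and at 5.0, 4.93 and 4.63 RPKM in WT libraries, which do not overlap (log2 fold change -0.23, SE 0.13, limma adjusted p = 0.909). Sephs2, which makes the selenium donor, was at 19.8 ± 2.57 RPKM in KO and 21.8 ± 2.14 RPKM in WT.

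Among regulators 6 of 11 were lower (median -0.049), and without WT replicate 3 it was 7 of 11 (median -0.036). The erythroid factor Nfe2 was the highest, at 366 ± 108 RPKM in KO and 516 ± 273 RPKM in WT. Sesn2, a stress-induced sestrin, was at 6.99, 6.13 and 6.30 RPKM in KO libraries and at 5.48, 4.99 and 5.90 RPKM in WT libraries, again without overlap (log2 fold change 0.21, SE 0.14, limma adjusted p = 0.909). Of the further NRF2 targets 3 of 6 were lower with all libraries (median -0.062) and 0 of 6 without WT replicate 3 (median 0.15). The ferritin light chain Ftl1 was the highest, at 10122 ± 2289.7 RPKM in KO and 10764 ± 5538 RPKM in WT, and near-identical copies could share its reads.

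**Figure D4:**
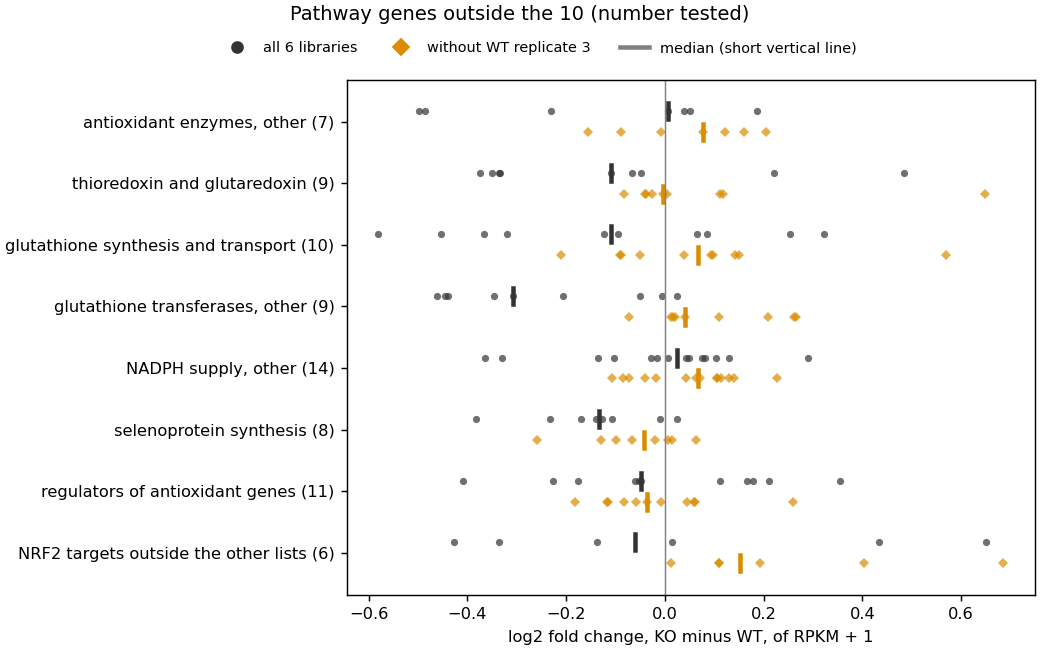
Fitted log2 fold change of RPKM + 1 (x axis, KO minus WT) of each tested gene in 8 lists outside the 10 genes, with all 6 libraries (dark circles) and without WT replicate 3 (orange diamonds), and a short line at each median. Glutathione transferases show the widest shift between settings, with medians of -0.31 and 0.041.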

How the data were processed

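The deposited table holds RPKM values of 6 libraries, 3 Tfam KO and 3 Tfam WT, made by the authors with TopHat and Cufflinks on build mm9, per the submitters' processing notes. The sources used here do not give versions, annotation or the use of strand. Of 23119 rows, 25 are named by a number alone; they hold 0.158% of the RPKM sum on average and were not used. Where a list symbol stands on several rows, the row with the highest mean was used. Depth is unknown in absolute terms. Steps between RPKM values below 0.05 put KO replicates 2 and 3 and WT replicate 1 at 79.0% to 88.9% of the depth of WT replicate 2, with 72.0% to 75.4% of values on such steps. For KO replicate 1 (39.9%) and WT replicate 3 (17.2%) the depth was not resolved. No counts were available for intervals.

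limma 3.58.1 in R 4.3.3 was fitted to log2(RPKM + 1) of the 8302 rows with a mean of at least 1, a trended variance, no block term, and adjustment by Benjamini-Hochberg across all rows; intervals are at 95%. Fold changes on this scale understate changes of low genes. The code of the fit was run on simulated data with known changes. Noise there was independent between genes and libraries, without the length pattern of WT replicate 3. The simulation therefore does not show how the fit performs on these libraries. Lengths are those of the longest RefSeq-linked GENCODE M21 transcript, matched for 95.5% of tested rows. Replicate numbers were taken to pair the libraries as an assumption, since no label states a pairing. Deviations from group means correlated at 0.46, 0.17 and 0.53 between libraries of the same number, and at 0.40 between KO replicate 1 and WT replicate 2. These correlations do not establish pairs. Members and lists were chosen with earlier results of these data known. By the rule for named genes the text gives the 10 genes, Tfam, the 5 genes most like Gsta4 and, per list, the highest gene and up to 2 genes per direction whose groups do not overlap. Other genes given with values stand outside that rule, among them Epor, Hmox1, Gclc, Gclm, Gss, Nqo1, Rn45s, Malat1 and single macrophage markers. The list counts also include rows that join several gene names, such as those of Mafg and Tkt, which the rule leaves out. Of the 115 list symbols, Sepx1 matched no row. Figures were drawn with matplotlib 3.10.9 in Python 3.11.15.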

Additional observations from a re-analysis of the deposited data

How the results depend on the processing

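In limma, 0 of the 9 genes other than Gsta4 passed an adjusted p of 0.05 under any setting run. Over all rows the test called 0 genes, and 0 to 2 genes higher in KO when a library was left out; without replicate 3 of both groups, a setting chosen after seeing the data, it called 2. The replicate block changed no call: it left each fitted difference as it was, called 0 genes and gave 324 rows an unadjusted p under 0.05, or 606 with the length trend also removed. Counting Gsta4, which was chosen by its KO and WT values, the number of the 10 genes without overlap was 1 to 4 when a library was left out. It was 4 without KO replicate 3, beside 23.9% of all rows, and 4 without replicate 3 of both groups, beside 34.2%. At a mean RPKM of at least 5, where Gsta4 was not tested, it was 0. Over all other settings the log2 difference of Gsta4 was -1.20 (pseudocount 0.1) to -0.70 (length trend removed), with -1.04 to -0.86 when a library was left out and -1.07 without replicate 3 of both groups.

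Leaving out a library moved the median of the 10 genes over -0.51 to 0.0027, and the differences over -0.88 to 0.15 for Gpx1, -0.79 to 0.0050 for Prdx2, -0.83 to 0.067 for Gpx4, -0.73 to 0.087 for Sod1, -0.26 to 0.061 for Gsr, -0.088 to 0.12 for G6pdx and -0.24 to 0.0032 for Tfam. G6pdx was at -0.10 without replicate 3 of both groups. An equal RPKM sum per library moved the median of all rows to 0.17 and turned Prdx3 (0.043), Sod2 (0.049), Gsr (0.12) and Tfam (0.077), as quantile normalization did Prdx3 (0.059). The median of the 10 genes was -0.069 under the equal sum and -0.065 under quantile normalization. Under these, Gpx1 was at -0.26 and -0.24, Gpx4 at -0.26 and -0.24, Prdx2 at -0.24 and -0.032 and Sod1 at -0.18 and -0.15. The equal sum put the list medians at 0.23 for other antioxidant enzymes, 0.22 for NADPH supply, 0.065 for selenoprotein synthesis and 0.18 for regulators. With a library left out these medians ran over -0.27 to 0.077, -0.045 to 0.067, -0.20 to -0.043 and -0.10 to 0.094. The cause was not tested. Read depth is known only in part, so the counting error of low values such as those of Gsta4 is unknown.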

Other observations

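Hmox1, the inducible heme oxygenase and a target of NRF2, was chosen after its values were seen. It was at 11.2, 15.5 and 5.47 RPKM in KO libraries and at 6.36, 5.26 and 6.29 RPKM in WT libraries. KO replicates 1 and 2 lay above every WT library and KO replicate 3 among them, so the groups overlapped, and the log2 fold change was 0.65 (limma adjusted p = 0.909). Gclc and Gclm, the subunits of the enzyme that opens glutathione synthesis, were also chosen after their values were seen. Gclc was at 83.7 ± 12.7 RPKM in KO and 67.9 ± 17.3 RPKM in WT, and Gclm at 321 ± 58.9 RPKM in KO and 304 ± 28.6 RPKM in WT (SD, n = 3). Gclc had its lowest value in WT replicate 3, at 48.0 RPKM. The groups overlapped for both. The log2 fold change was 0.32 for Gclc and 0.065 for Gclm with all libraries (limma adjusted p = 0.909 and 0.941). Without WT replicate 3 it was 0.094 and 0.097. Other genes of the lists of these 3 went the other way, among them Gss (-0.45) and Nqo1 (-0.14). In glutathione synthesis and transport 6 of 10 were fitted lower in KO, and of the further NRF2 targets 3 of 6.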
